A study of Mus musculus with 6 samples.

Results

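The LSD1, CoREST and REST complex is a repressor of transcription, and 10 of its genes were followed here in mouse fibroblasts with and without *Hotair*: *Kdm1a*, *Rcor1*, *Rcor2*, *Rcor3*, *Rest*, *Hdac1*, *Hdac2*, *Phf21a*, *Hmg20b* and *Sin3a*. The genes were taken from a list of complex members, and every probe set that the array annotation gives to one of them alone was used. All 10 genes were measured, by 28 of the 45037 probe sets, and they are 10 of the 18193 genes with a probe set of their own. The cells were tail tip fibroblasts of neonatal mice backcrossed to C57BL6, either *Hotair* wild type (3 arrays) or *Hotair* knockout (3 arrays), with no treatment named in the labels. The labels number the samples of each genotype 1 to 3 without saying that each came from its own animal or culture, so the spread behind a p-value here may be technical. No probe set was named for *Hotair*, so the genotypes were not checked against their target.

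LSD1, the product of *Kdm1a*, takes methyl groups off the tail of histone H3 and needs a CoREST protein to work on nucleosomes. CoREST also holds the deacetylases HDAC1 and HDAC2, so that both kinds of mark can be removed together. The DNA-binding factor REST brings CoREST to its C-terminal end and SIN3A to its N-terminal end, and in cells outside the nervous system it keeps neuronal genes low. *Hotair* is a long noncoding RNA of the Hoxc cluster, and its human counterpart has been described to bind Polycomb repressive complex 2 with one end and LSD1, CoREST and REST with the other. The comparison asks whether the RNAs of this machinery differed between cells with and without *Hotair*. In these bulk cultures, fewer cells of a type and less RNA per cell cannot be told apart.

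The values are log2 RMA signals, on which 1 unit is a doubling, and the array medians over all probe sets lay between 5.56 and 5.68. All 12 fibroblast markers had a mean over all arrays at or above the median gene. Their list median was 11.14 to 11.73 in wild type and 11.72 to 12.51 in knockout. Single markers were less even, and the wild-type means of *Lum* (6.63) and *Fap* (5.76) lay below the median gene. Their knockout means were 9.26 and 8.12. *Thy1* measured 12.15, 4.65 and 7.17 on the wild-type arrays and 11.71, 10.54 and 10.28 on the knockout arrays. *Fap* measured 5.43, 9.26 and 9.66 on the knockout arrays. *Pdgfra* measured 8.62, 9.99 and 11.34 on the wild-type arrays and 9.93, 12.50 and 12.45 on the knockout arrays. The arrays of neither genotype were thus uniform in these markers. Of 8 neuron markers 2 reached the median gene, *Map2* (means of 8.41 in wild type and 8.95 in knockout) and *Tubb3* (8.24 and 7.13). The dimmest of the 8 was *Snap25*, a synaptic protein, at 3.28 in wild type and 3.34 in knockout. The log2 of the summed level of 6 skeletal muscle markers ranged from 9.48 to 12.90 in wild type and from 8.12 to 11.60 in knockout, and that of 8 leukocyte markers from 9.53 to 9.87 and from 8.70 to 11.15. The highest muscle sum of each genotype was that of replicate 1. There *Acta1*, skeletal actin, stood at 12.85 and 11.48, while the 5 other muscle markers had means below the median gene. The highest leukocyte sum was that of knockout replicate 1, where *Lyz2* stood at 10.57, *Cd68* at 7.85 and *Ptprc* at 4.23. *Cd14* had means of 8.47 in wild type and 6.50 in knockout. For 7 keratinocyte markers the log2 of the summed level was 8.99 to 9.27 in wild type and 8.68 to 9.16 in knockout. Their list median was 6.06 to 6.43 and 4.66 to 5.49, though the median of their differences was −0.007. Among them *Dsp* measured 6.43, 6.74 and 6.18 on the wild-type arrays and 5.49, 3.58 and 3.70 on the knockout arrays. For 8 glial and melanocyte markers the log2 of the summed level was 8.27 to 8.90 and 8.34 to 8.79. The 6 endothelial markers lay between 6.79 and 7.07 over all arrays, each with a mean below the median gene.

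Replicate 1 of both genotypes stood apart from the other arrays. The median proliferation gene lay 1.59 and 1.38 below its own mean over the arrays in wild-type and knockout replicate 1, and 0.54 to 0.98 above it on the 4 others. On knockout replicate 1 the 3′ control probe set exceeded the 5′ one by most, by 0.63 for actin and 0.75 for *Gapdh* against at most 0.21 and −0.03 elsewhere, which is a measure of RNA degradation. The part of these differences in the results was not tested. Each member is therefore given by array. The fit that leaves out both replicate 1 arrays (2 arrays per genotype) is given where its call differs, and for *Kdm1a*, where it does not.

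The members had no common direction between genotypes. In the gene table, where a gene is read by its brightest probe set, 5 of the 10 members had a higher mean in knockout and 5 a lower one. The median difference was 0.04, against 0.01 over all genes. By limma, 0 of 10 members passed at an adjusted p under 0.05, as did 0% of all 18193 genes, and 2 members (*Hdac1* and *Sin3a*) had an unadjusted p under 0.05 against 6.68% of all genes. An ordinary equal-variance model gave 1 member at an unadjusted p under 0.05, against 4.92% of all genes, and 0 after adjustment. When replicate numbers entered limma as a block, there was an unadjusted p under 0.05 for *Sin3a* (0.0213) and *Phf21a* (0.0492) and no longer for *Hdac1* (0.0561), 2 of 10 against 11.1% of all genes. Over all probe sets 0 of 28 passed, with 2 at an unadjusted p under 0.05 against 5.34% of all probe sets. With the replicate block these were 5 of 28, of *Hdac1*, *Phf21a* and *Sin3a*, against 8.88%, and 0 passed after adjustment. The equal-variance model gave 1 of 28 against 4.33%.

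**Figure D1:**
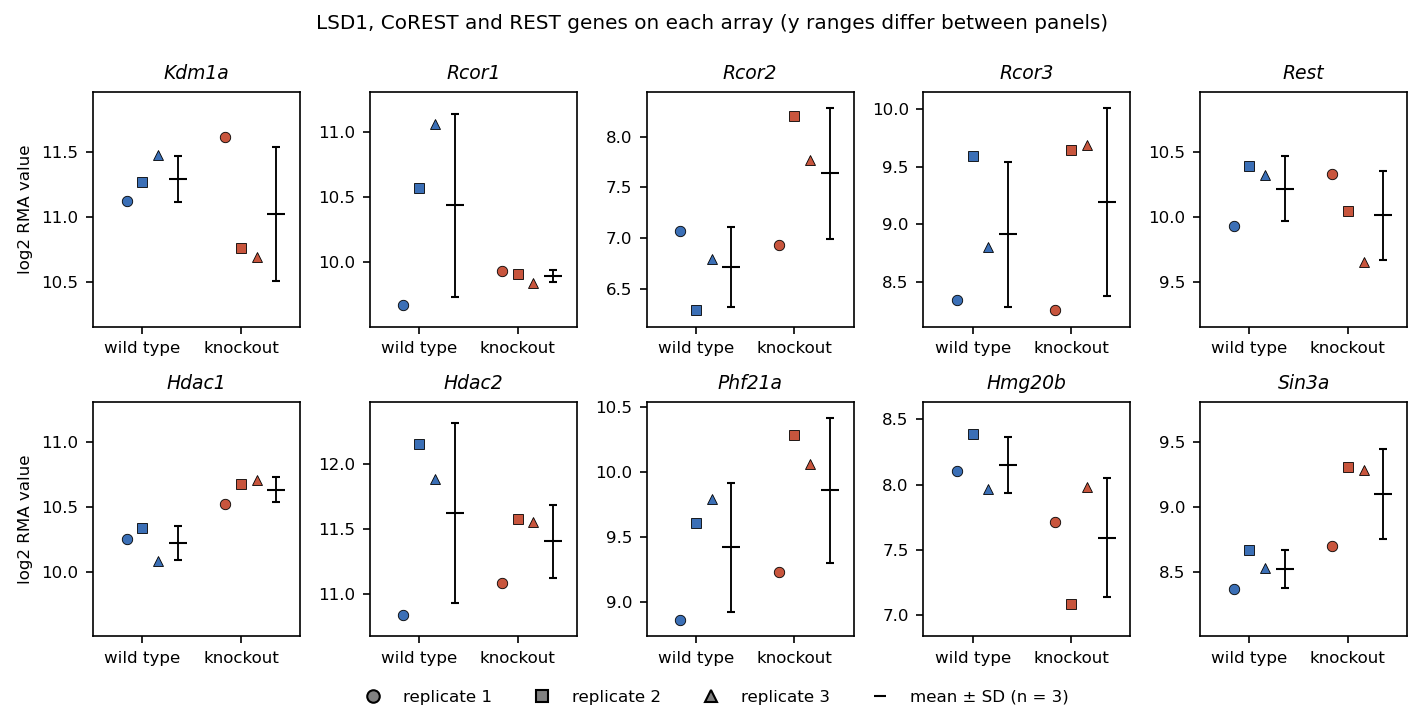
Log2 RMA value of each member gene (brightest probe set) on the 6 arrays, wild type in blue and knockout in red, with marker shape for the replicate number and a bar for the mean ± SD of 3 arrays. The knockout points of *Hdac1* and *Sin3a* all lie above the wild-type points, and the groups overlap for the 8 other genes.

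*Kdm1a*, the demethylase at the centre of the complex, was abundant on all arrays. Its brighter probe set (1426762_s_at) measured 11.12, 11.27 and 11.47 on the wild-type arrays and 11.61, 10.76 and 10.69 on the knockout arrays. Knockout replicate 1 was thus the highest of the 6 arrays and knockout replicates 2 and 3 were the lowest, so the groups overlap. The difference was −0.27 ± 0.28 (SE, n = 3 per genotype; limma adjusted p = 0.957). By replicate number it was 0.49, −0.51 and −0.78, and leaving out 1 array moved it between −0.56 and −0.10. The other probe set measured 9.92, 9.92 and 10.23 on the wild-type arrays and 10.03, 9.51 and 9.48 on the knockout arrays, where knockout replicates 2 and 3 were again the lowest and knockout replicate 1 lay below wild-type replicate 3. Without the replicate 1 arrays *Kdm1a* was lower by a factor of 1.56 (adjusted p = 0.0542).

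The genes of the deacetylases had mean differences of opposite sign over all arrays, though that of *Hdac2* turned to 0.045 without wild-type replicate 2. *Hdac1* (1448246_at) measured 10.25, 10.34 and 10.09 on the wild-type arrays and 10.52, 10.68 and 10.70 on the knockout arrays. All 3 knockout arrays lay above all 3 wild-type arrays, and the SDs were 0.13 and 0.10. The difference was 0.41 ± 0.14 (SE, 1.33-fold; limma adjusted p = 0.743), and it was 0.27, 0.33 and 0.62 by replicate number. Leaving out any array kept it between 0.34 and 0.46, which was the narrowest such range among the 10 members.

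*Hdac2*, the close relative that shares the CoREST and SIN3 complexes with *Hdac1*, had no such separation. Its brightest probe set (1445684_s_at) measured 10.84, 12.15 and 11.88 on the wild-type arrays and 11.08, 11.58 and 11.55 on the knockout arrays. Replicate 1 was the lowest array of each genotype, and within replicates 2 and 3 knockout was below wild type. The difference was −0.22 ± 0.37 (SE), made of 0.25, −0.57 and −0.33 by replicate number. A second bright probe set (1449080_at) gave 0.23, −1.09 and −0.44, and the third, at a mean near the median probe set, differed by 0.00 overall.

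The log2 ratio of *Hdac1* to *Hdac2* signal, which shows unequal change but not the amounts of the RNAs, was formed after the values were seen. It was −0.59, −1.81 and −1.79 on the wild-type arrays and −0.56, −0.90 and −0.85 on the knockout arrays. The ratio differed by 0.02 between the replicate 1 arrays and was higher in knockout by 0.91 and 0.94 in replicates 2 and 3. No test was made of it.

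**Figure D2:**
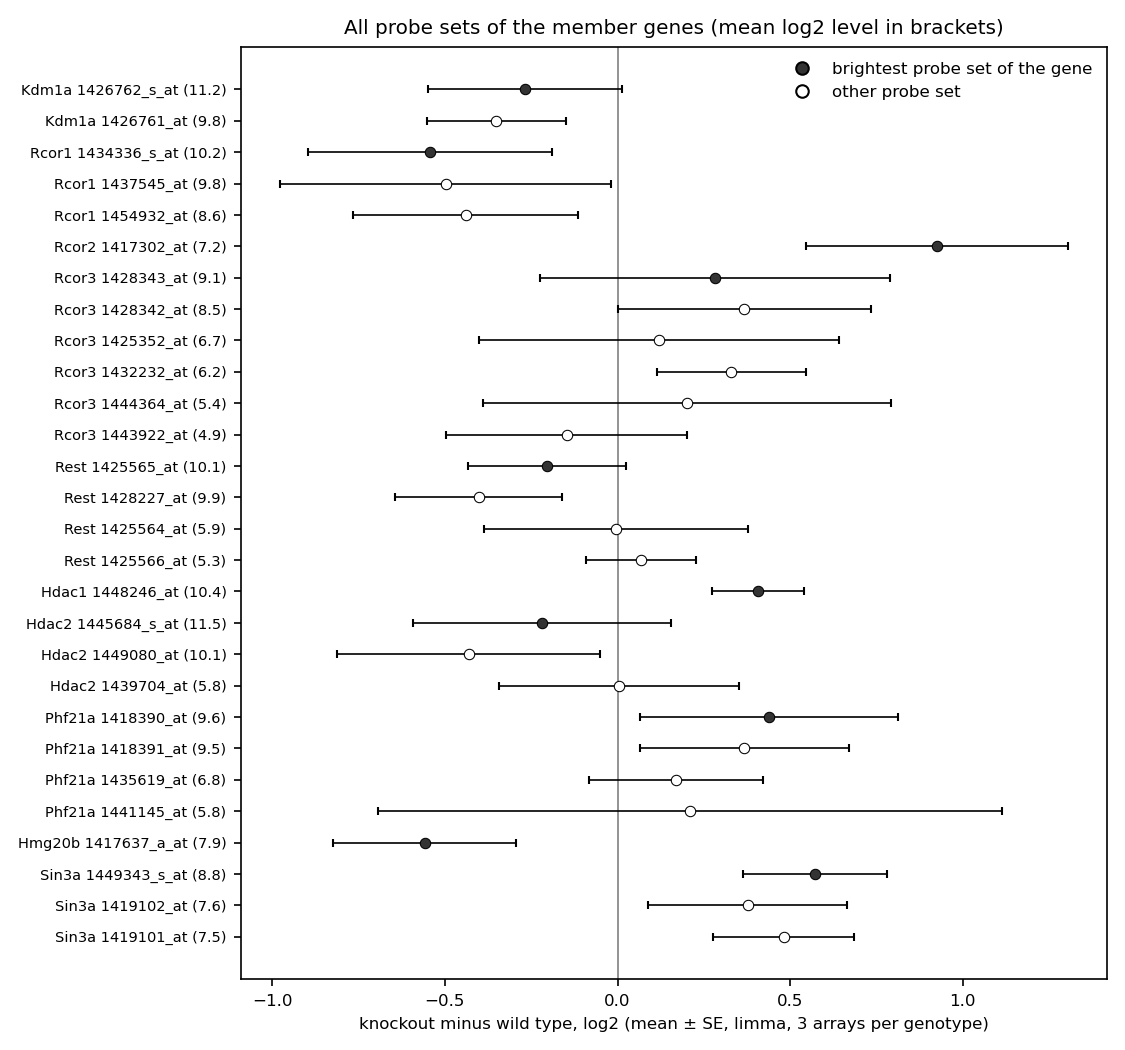
Knockout minus wild type on the log2 scale for all 28 probe sets of the members, with limma's SE (3 arrays per genotype), filled for the brightest probe set of a gene and open for the others, and the mean level in brackets. All probe sets of *Kdm1a* and *Rcor1* lie below 0 and all of *Phf21a* and *Sin3a* above it, while those of *Rcor3*, *Rest* and *Hdac2* lie on both sides. The dim *Hdac2* probe set at 0.00 falls below 0 after renormalisation (−0.0051).

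The CoREST scaffolds, the proteins that join LSD1 to the deacetylases, went in opposite directions in replicates 2 and 3. *Rcor1*, the founding and broadly expressed family member, was read by 3 probe sets. The brightest (1434336_s_at) measured 9.67, 10.57 and 11.06 on the wild-type arrays and 9.93, 9.91 and 9.84 on the knockout arrays. The knockout values were close to each other (SD 0.05) and lay inside the wide wild-type range (SD 0.70), in which replicate 1 was the lowest of all 6 arrays. The difference was −0.54 ± 0.36 (SE; limma adjusted p = 0.849), with 0.26, −0.66 and −1.22 by replicate number. It was −0.92 without wild-type replicate 1 and −0.23 without wild-type replicate 3. The other probe sets showed the same order, with 0.59, −0.44 and −1.64 for 1437545_at and 0.16, −0.44 and −1.05 for 1454932_at.

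*Rcor2*, a relative with a more restricted expression in development and the nervous system, had 1 probe set (1417302_at). It measured 7.07, 6.28 and 6.79 on the wild-type arrays and 6.93, 8.21 and 7.77 on the knockout arrays. Knockout replicates 2 and 3 were above every wild-type array, while knockout replicate 1 lay among them. This was the largest difference among the members, 0.92 ± 0.38 (SE, 1.90-fold; limma adjusted p = 0.743), and by replicate number it was −0.13, 1.92 and 0.98. Leaving out 1 array moved it between 0.64 and 1.28. The level is near that of the median gene, and no second probe set was at hand to compare.

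*Rcor3*, the third CoREST protein, was measured by 6 probe sets that did not separate the genotypes. The brightest (1428343_at) measured 8.34, 9.59 and 8.80 on the wild-type arrays and 8.25, 9.65 and 9.69 on the knockout arrays, a difference of 0.28 ± 0.51 (SE). The replicate 1 arrays were the lowest of both genotypes. Of the 6 probe sets 5 had a higher knockout mean, between 0.12 and 0.37, and the dimmest was at −0.15.

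In the fit of the gene table without the replicate 1 arrays, *Rcor2* rose by 1.45 ± 0.25 (SE, 2.74-fold, n = 2 per genotype; limma adjusted p = 0.0241) and *Rcor1* fell by 0.94 on the log2 scale (1.92-fold lower; adjusted p = 0.0442). *Sin3a* passed in the same fit. These 3 of 10 members stand against 14.0% of all genes that passed there, 7.56% higher and 6.41% lower. When all probe sets were fitted without the replicate 1 arrays, 0 of the 28 passed, against 4.08% of all probe sets, with adjusted p of 0.0621 for *Rcor2* and 0.0945 for *Rcor1*. With array weights, *Rcor2* (adjusted p = 0.0267) and *Sin3a* (0.0369) passed in the gene table, 2 of 10 against 11.5% of all genes. Over all probe sets the weighted fit called 0 of the 28 and 0% of all, with adjusted p of 0.0978 and 0.109 for the same probe sets. A term for replicate 1, which kept all 6 arrays, called 0 of 10 members and 0 of 18193 genes.

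The log2 ratio of *Rcor2* to *Rcor1* signal, again formed after the values were seen, was −2.61, −4.28 and −4.27 on the wild-type arrays and −3.00, −1.70 and −2.07 on the knockout arrays. Knockout minus wild type was −0.39 for replicate 1 and 2.59 and 2.21 for replicates 2 and 3. The ratio was thus higher in knockout in replicates 2 and 3 and slightly lower in replicate 1. No test was made of it.

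**Figure D3:**
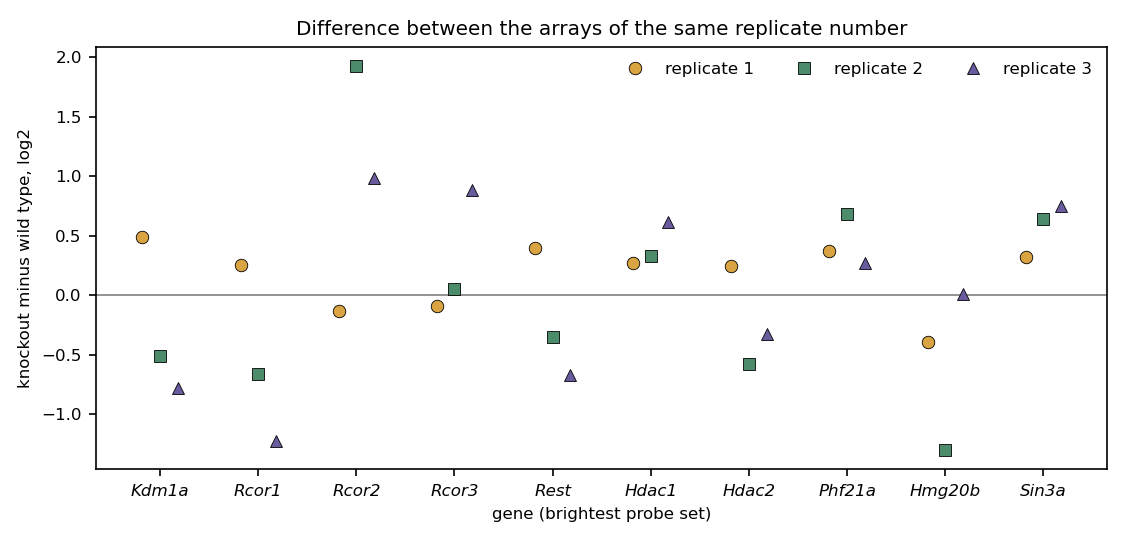
Knockout minus wild type on the log2 scale between the arrays of the same replicate number, for the brightest probe set of each member, with a marker shape per replicate number. *Hdac1*, *Phf21a* and *Sin3a* are above 0 in all 3 replicate numbers, whereas *Kdm1a*, *Rcor1*, *Rest* and *Hdac2* are above 0 in replicate 1 and below it in replicates 2 and 3.

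The sequences upstream of the scaffold genes are shown because *Rcor1* and *Rcor2* had the largest mean differences of opposite sign in replicates 2 and 3. They are the 250 bases before the RefSeq start site in GRCm38.p6, at chr12:111039117-111039366 (plus strand) for *Rcor1* and chr19:7267144-7267393 (plus strand) for *Rcor2*, with capitals for a match to GGACAG, the right arm of RE1, the element that REST binds.
Rcor1: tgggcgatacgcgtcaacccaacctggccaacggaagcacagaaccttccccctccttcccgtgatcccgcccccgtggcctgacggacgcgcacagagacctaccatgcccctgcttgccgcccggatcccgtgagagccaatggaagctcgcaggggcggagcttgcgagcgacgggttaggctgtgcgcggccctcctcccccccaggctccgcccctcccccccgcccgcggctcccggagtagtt
Rcor2: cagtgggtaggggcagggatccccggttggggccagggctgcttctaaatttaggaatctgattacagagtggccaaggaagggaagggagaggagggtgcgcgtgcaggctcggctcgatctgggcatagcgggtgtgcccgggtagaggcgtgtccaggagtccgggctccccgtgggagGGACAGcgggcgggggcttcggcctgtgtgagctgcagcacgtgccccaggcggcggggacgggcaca

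The *Rcor1* stretch holds 25 CpG dinucleotides and the *Rcor2* stretch 17. RefSeq promoter windows of 300 bases (250 before to 50 after a start site) were matched for 8 of the 10 members. GGACAG was searched on both strands, and the *Rcor2* match was the only one among their 12 windows. It starts 68 bases before the start site. The same letters occur in 22.2% of all 32851 windows. The left arm of RE1, TTCAGCACC, was matched in 0 of the 12 windows and in 0.371% of all windows. A match is a description of the letters and not a measured binding site.

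The accessory subunits of CoREST also had mean differences of opposite sign. *Phf21a* encodes BHC80, which reads the unmethylated tail of histone H3 that LSD1 leaves. Its brightest probe set (1418390_at) measured 8.86, 9.61 and 9.79 on the wild-type arrays and 9.23, 10.29 and 10.06 on the knockout arrays. Knockout was higher in each replicate number (0.37, 0.68 and 0.27), but the groups overlap because knockout replicate 1 lay below wild-type replicates 2 and 3. The difference was 0.44 ± 0.37 (SE; limma adjusted p = 0.915), and all 4 probe sets had a higher knockout mean (0.17 to 0.44). Leaving out 1 array moved that of the brightest between 0.16 and 0.76.

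*Hmg20b* encodes BRAF35, an HMG-box protein that binds distorted DNA. Its probe set (1417637_a_at) measured 8.10, 8.38 and 7.97 on the wild-type arrays and 7.71, 7.09 and 7.98 on the knockout arrays. Knockout replicate 2 was the lowest array and knockout replicate 3 differed from wild-type replicate 3 by 0.01. The difference was −0.56 ± 0.27 (SE; limma adjusted p = 0.769), it was −0.39, −1.30 and 0.01 by replicate number, and leaving out 1 array moved it between −0.75 and −0.31.

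*Rest*, the DNA-binding factor itself, was well expressed and had 4 probe sets. The brightest (1425565_at) measured 9.93, 10.39 and 10.32 on the wild-type arrays and 10.33, 10.05 and 9.66 on the knockout arrays, and 1428227_at measured 9.67, 10.25 and 10.53 and 9.78, 9.82 and 9.64. Both were higher in knockout in replicate 1 (0.40 and 0.12) and lower in replicates 2 (−0.35 and −0.43) and 3 (−0.67 and −0.89). The difference of the brightest was −0.20 ± 0.23 (SE; limma adjusted p = 0.962), and when 1 array was left out it lay between −0.37 (knockout replicate 1) and −0.027 (knockout replicate 3). The other probe sets were dim, with wild-type means of 5.86 and 5.30, and differed by −0.00 and 0.07.

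*Sin3a*, the scaffold of the other corepressor that REST recruits, was higher in knockout by all 3 of its probe sets. The brightest (1449343_s_at) measured 8.37, 8.67 and 8.54 on the wild-type arrays and 8.70, 9.31 and 9.28 on the knockout arrays. The lowest knockout array was 8.70 and the highest wild-type array 8.67, so the groups were separated only narrowly. The difference was 0.57 ± 0.21 (SE, 1.49-fold; limma adjusted p = 0.743). By replicate number it was 0.33, 0.64 and 0.75, and the other probe sets gave 0.42, 0.58 and 0.13, and 0.47, 0.21 and 0.77. Without the replicate 1 arrays *Sin3a* rose by 0.69 ± 0.15 (SE, n = 2 per genotype; adjusted p = 0.0394).

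Knockout was above wild type on every array for 2 of 10 members, *Hdac1* and *Sin3a*, against 5.56% of all genes, and below it on every array for none, against 4.38%. Of the 28 probe sets the same 2 were separated upward, against 4.48% of all probe sets, and 0 downward, against 4.43%. Within replicate numbers, 3 of 10 members (*Hdac1*, *Phf21a* and *Sin3a*) were higher in all 3, against 17.1% of all genes, and 0 were lower in all 3, against 13.4%. Among the probe sets 8 of 28 were higher in all 3, against 14.7%, and 0 lower, against 13.8%. Probe sets of 1 gene read the same RNA, so these 8 are 2 of *Phf21a*, 3 of *Sin3a*, 2 of *Rcor3* and the one of *Hdac1*. The median difference over the members was 0.26 in replicate 1, −0.15 in replicate 2 and 0.14 in replicate 3.

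Within a genotype, replicate 1 departed from the mean of replicates 2 and 3 by up to 1.42 among the members. *Rcor3* was lower in replicate 1 than in the mean of the others by 0.86 in wild type and by 1.42 in knockout, and *Phf21a* by 0.84 and 0.95. *Hdac2* was lower by 1.18 and 0.48 and *Sin3a* by 0.23 and 0.60. For these genes replicate 1 was the lowest array of its own genotype, and proliferation genes were low there too. Across genotypes this order did not hold for *Sin3a*. It was at 8.70 on knockout replicate 1, above the 8.67 and 8.54 of wild-type replicates 2 and 3. A link of these departures to proliferation or to RNA degradation was not tested. For *Kdm1a*, *Rcor1*, *Rcor2* and *Rest* the departure had opposite signs in the genotypes, with −0.25 and 0.89 for *Kdm1a*, −1.14 and 0.06 for *Rcor1*, 0.53 and −1.06 for *Rcor2* and −0.43 and 0.48 for *Rest*. The signs were also opposite, at smaller sizes, for *Hdac1* (0.04 and −0.17) and *Hmg20b* (−0.07 and 0.18).

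The partners that bring CoREST to genes, or work beside it, were described by a list of 23 names, of which 22 were measured. Of these 14 had a higher mean in knockout and 8 a lower one, with a median of 0.17. By limma 0 passed over all arrays and 2 of 22 had an unadjusted p under 0.05, both higher, against 6.68% of all genes. *Snai1*, a zinc finger repressor whose SNAG domain binds LSD1, measured 7.75, 6.35 and 6.79 on the wild-type arrays and 8.80, 7.79 and 8.43 on the knockout arrays. All knockout arrays of *Snai1* were above all wild-type arrays, and the difference was 1.38 ± 0.44 (SE, 2.60-fold; adjusted p = 0.743). Of the 22 genes 2 were separated upward and 0 downward, against 5.56% and 4.38% of all genes. *Ehmt2*, the histone methyltransferase G9a, differed by 0.57 ± 0.23 and *Zfp217*, a zinc finger partner of CoREST, by 0.59 ± 0.24.

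Without the replicate 1 arrays 3 of the 22 rose (*Snai1*, *Ehmt2* and, named after its values were seen, the CoREST-associated *Cdyl*) and 0 fell, against 7.56% of all genes higher and 6.41% lower. *Ehmt2* was 0.92 and *Cdyl* 1.20 higher there, but −0.11 and −0.47 within replicate 1, whereas *Snai1* was higher in each replicate number (1.05, 1.44 and 1.64). Of the closest relatives of members, *Kdm1b*, the other LSD demethylase, differed by −0.05 ± 0.27 (SE), *Hdac3* by 0.33 ± 0.20 and *Hdac8* by −0.43 ± 0.32. The lowest p on the other side were those of *Mier2* (−0.30), *Gfi1* (−0.23), a SNAG-domain repressor that was dim in these cells, and *Hdac8*.

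The SIN3 complex and its chaperones, 20 genes measured of 24 names listed, had a median difference of −0.02, with 9 higher and 11 lower. By limma 0 passed and 2 of 20 had an unadjusted p under 0.05, against 6.68% of all genes. *Max*, the bHLH partner through which SIN3 reaches E-boxes, measured 9.52, 9.21 and 8.83 on the wild-type arrays and 8.04, 8.41 and 8.59 on the knockout arrays, with all knockout arrays below all wild-type arrays (−0.84 ± 0.24, SE; adjusted p = 0.743). *Suds3*, a SIN3 subunit that supports deacetylation, was at 0.68 ± 0.27, *Rbbp4*, a histone chaperone, at 0.31 ± 0.13 and *Sap130* at 0.33 ± 0.15, and on these brightest probe sets the knockout arrays of all 3 lay above the wild-type arrays. The second probe set of *Suds3* (0.32) and the 3 others of *Rbbp4* (0.03 to 0.39) had groups that overlap. Of the 20 genes 3 were separated upward and 1 downward, against 5.56% and 4.38% of all genes. *Arid4a* (−0.82 ± 0.43) fell without the replicate 1 arrays, by 1.42 (n = 2 per genotype; adjusted p = 0.0134), and was 0.38 higher within replicate 1. Of the 20 genes 0 rose and 1 fell in that fit, against 7.56% of all genes higher and 6.41% lower. *Sap30l* was at −0.41, and *Sin3b*, the relative of *Sin3a*, at 0.05 ± 0.18 by its brightest probe set, the only one of 5 above 0. Another of its probe sets was at −0.45 ± 0.14 (SE; adjusted p = 0.925 over all probe sets), with all knockout arrays below all wild-type arrays.

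**Figure D4:**
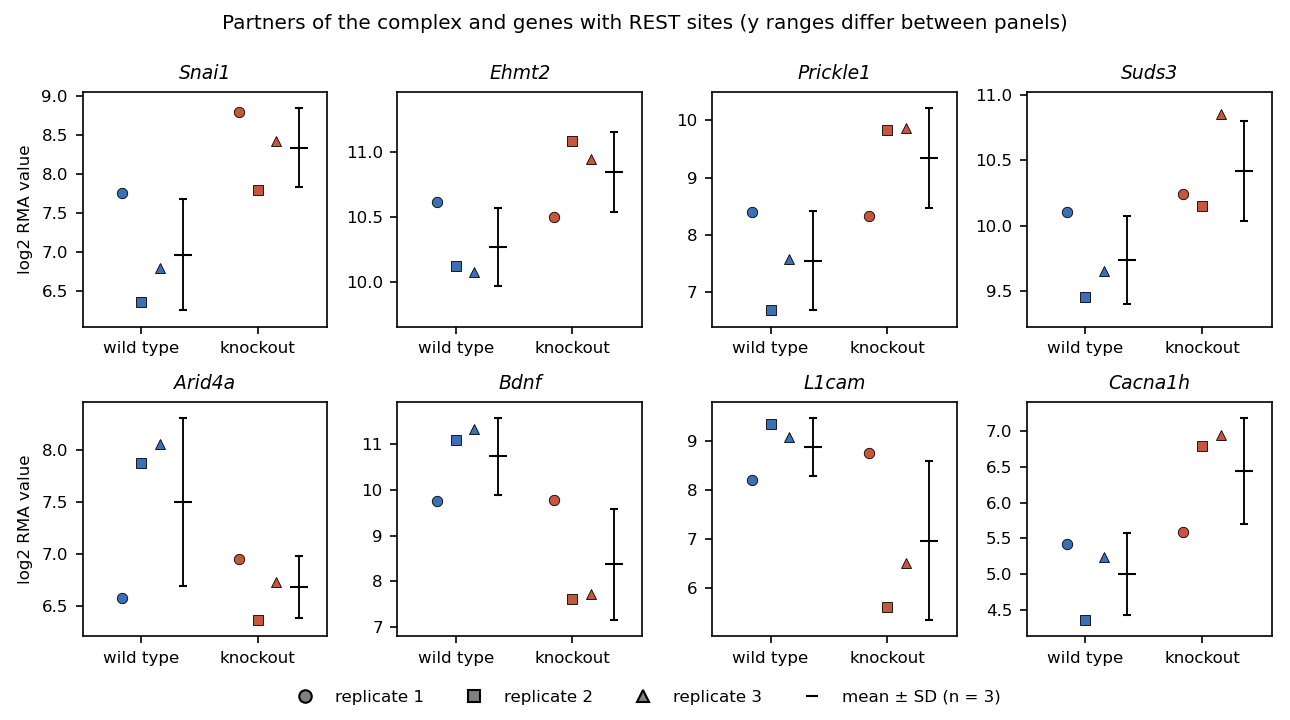
Log2 RMA values on the 6 arrays of 8 genes picked from those named by rank in the lists of partners and of genes with REST sites. Others with a smaller p than some shown, such as *Max*, *Cplx2* and *Ctdsp1*, are left out. Wild type is in blue and knockout in red, with marker shape for the replicate number and a bar for the mean ± SD of 3 arrays. *Snai1*, *Suds3* and *Cacna1h* have all knockout points above the wild-type points, while *Bdnf* and *L1cam* are far lower in knockout replicates 2 and 3 than on the 4 other arrays.

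Of the cofactors of REST and the proteins that govern its turnover and transport, 12 of 14 were measured, with 5 higher, 7 lower and a median of −0.05. By limma 0 passed, and 2 of 12 had an unadjusted p under 0.05, against 6.68% of all genes. *Prickle1*, known to bind REST and to act in its nuclear transport as well as in planar cell polarity, measured 8.40, 6.69 and 7.57 on the wild-type arrays and 8.33, 9.83 and 9.86 on the knockout arrays. It was the same in both replicate 1 arrays to within 0.07 and was 3.14 and 2.28 higher in knockout in replicates 2 and 3. The difference over all arrays was 1.79 ± 0.59 (SE; adjusted p = 0.743). The other probe sets of *Prickle1* were dim, at 0.35 with groups that did not overlap and 0.35 with groups that overlap. Without the replicate 1 arrays *Prickle1* rose 6.56-fold by its brightest probe set (n = 2 per genotype; adjusted p = 0.0104). In that fit 1 of the 12 genes rose and 0 fell, against 7.56% of all genes higher and 6.41% lower. *Ctdsp1*, a small phosphatase that stabilises REST, was at 0.49 ± 0.17, with all knockout arrays above the wild-type arrays. *Smarcc2*, a BAF chromatin remodelling subunit, was at −0.26 ± 0.14, with all knockout arrays below. Of the 12 genes 1 was separated upward and 1 downward, against 5.56% and 4.38% of all genes. *Fbxw11*, a ubiquitin ligase adaptor that marks REST for destruction, was at −0.33, *Csnk1a1*, a kinase, at 0.21 (2 of 5 probe sets above 0) and *Smarca4*, the remodelling ATPase, at −0.15.

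Neuronal genes known for REST sites, the output that this complex holds down, were mostly dim. Of 53 names 47 were measured, and 7 of these had a mean at or above that of the median gene. Knockout was higher for 21 and lower for 26, with a median of −0.03, and by replicate number the median was −0.14, −0.07 and 0.07. By limma 0 passed, and 4 of 47 had an unadjusted p under 0.05, 2 in each direction, against 6.68% of all genes. The log2 of the summed level of the 8 neuron markers was 9.97 to 10.04 in wild type and 9.69 to 10.23 in knockout.

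The neuronal genes were listed for known REST sites, so a share of RE1 matches above that of all genes was built into the choice. The left arm of RE1, TTCAGCACC, was found in the promoter windows of 4 of them. That is 14.3% of the 28 listed genes with a window in the RefSeq table, against 0.433% of all genes with a window. These stretches are shown because they match the letters of that arm at genes the complex is known to hold down, with no binding measured here, in capitals for the left arm, each on the strand where it reads in this direction (GRCm38.p6). They lie at chr9:108825912-108825941 (plus), chr1:79440019-79440048 (plus), chrX:20921127-20921156 (minus) and chr8:71671721-71671750 (plus), in the order shown.
Celsr3: gctccgTTCAGCACCgtgggcagcacttct
Scg2: ggccgtTTCAGCACCggacagctcctcggc
Syn1: gtcggaTTCAGCACCgcggtcagagccttc
Unc13a: tgtcgcTTCAGCACCgggggcgcggacagc

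In *Scg2* the letters GGACAG of the right arm follow directly, with 0 bases between, and in *Unc13a* after 8 bases. No exact match to them follows the left arm in the stretches of *Celsr3* and *Syn1*. Only exact matches were searched, so a right arm with a changed letter would be missed, and the spacing was not judged. These genes were chosen by sequence. All 4 were dim in both genotypes, as were most listed neuronal genes, of which 7 of 47 had a mean at or above the median gene. The synaptic vesicle protein *Syn1* had means of 5.08 ± 0.43 on the wild-type and 5.02 ± 0.06 on the knockout arrays (SD, n = 3), the granule protein *Scg2* 3.73 ± 0.19 and 3.96 ± 0.30, the synaptic priming factor *Unc13a* 4.19 ± 0.29 and 4.03 ± 0.18, and the cadherin *Celsr3* 4.64 ± 0.58 and 4.55 ± 0.32. Their differences were −0.07 ± 0.24, 0.23 ± 0.21, −0.16 ± 0.20 and −0.09 ± 0.34 (SE).

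Among the brighter neuronal genes some differences were large in replicates 2 and 3. *Bdnf*, a neurotrophin that fibroblasts also make, measured 9.77, 11.10 and 11.34 on the wild-type arrays and 9.78, 7.61 and 7.73 on the knockout arrays. The replicate 1 arrays were equal to within 0.02, and the others were lower in knockout by 3.49 and 3.61. Over all arrays the difference was −2.36 ± 0.72 (SE; limma adjusted p = 0.743), and the second probe set of *Bdnf* was at −2.11.

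*L1cam*, a neural adhesion molecule, measured 8.20, 9.35 and 9.08 on the wild-type arrays and 8.76, 5.60 and 6.51 on the knockout arrays (−1.92 ± 0.83, SE), and its other, dim probe set was at −0.18. *Cacna1h*, a T-type calcium channel, measured 5.43, 4.36 and 5.24 on the wild-type arrays and 5.59, 6.79 and 6.94 on the knockout arrays, with all knockout arrays above the wild-type arrays (1.43 ± 0.46, SE). *Cplx2* (−0.46 ± 0.15) and *Dnm1* (0.62 ± 0.27) also had groups that did not overlap on their brightest probe sets. The groups overlap on the other probe sets of *Cplx2* (−0.22 and −0.11) and *Dnm1* (0.10). Of the 47 genes 2 were separated upward and 1 downward, against 5.56% and 4.38% of all genes. *Cacna1a* was at 0.67 ± 0.25, though 2 of its 4 probe sets went the other way. The listed neuronal genes thus include both higher and lower values in knockout. Without the replicate 1 arrays, *Bdnf* (11.7-fold), *L1cam* (8.92-fold) and *Tubb3*, a neuronal tubulin named after its values were seen (2.46-fold), fell and *Cacna1h* rose (4.19-fold), 4 of 47 genes against the 14.0% of all genes.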

How the data were processed

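The authors deposited log2 probe set values of 6 Affymetrix mouse arrays. The submitters' processing notes name RMA and R 2.11.1. This method removes background, makes the arrays' distributions equal and gives each probe set a summary value, which hides any change in total RNA and compresses dim differences. No scanner files or detection calls were used here. Probe sets were named from the platform table, and 34945 of 45037 had 1 gene. Genotypes were compared across all rows in R 4.3.3 by limma 3.58.1 (lmFit, eBayes with defaults, genotype as the only term, two-sided, Benjamini-Hochberg at 0.05). This was done once for 18193 genes, each read by its probe set with the highest mean, and once for all 45037 probe sets. The scripts were tested on simulated data. The number of arrays limits precision: an exact permutation test of 3 against 3 cannot go below 0.1.

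After each genotype's mean was taken off, arrays with the same replicate number correlated at 0.50, 0.49 and 0.25. Wild-type replicate 3 correlated more with knockout replicate 2 (0.33). Neither these correlations nor the labels show that equal numbers are pairs. The main fit was therefore unpaired, with the replicate block as an alternative. All members were named, with the 3 smallest p in each direction of 4 context lists and the closest relatives of members. Members and lists were chosen with earlier results of these data known, so lists are given by counts and medians with no test. Alternatives were the replicate block, leaving out each array or both replicate 1 arrays, a term for replicate 1, array weights, another prior, renormalisation, a filter on dim rows, other probe set choices, an equal-variance model and other thresholds. Promoter sequences are from RefSeq, GRCm38.p6.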

Additional observations from a re-analysis of the deposited data

How the results depend on the processing

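With the replicate block (arrays of equal number treated as if paired) 0 of 10 members and 0 of 28 member probe sets passed. So did 0% of all genes and probe sets, so the block changed no call at an adjusted p under 0.05. At an unadjusted p under 0.05 it lost *Hdac1* and gained *Phf21a*, and 5 rather than 2 of the 28 probe sets passed. A term for replicate 1, fitted on all 6 arrays, called 0 of 10 members, 0 of 28 member probe sets and 0 of 18193 genes. Its limma adjusted p was 0.338 for *Rcor2*, 0.461 for *Rcor1* and 0.233 for *Sin3a*. Members passing in the gene table numbered 3 without both replicate 1 arrays, 2 with array weights and 2 at an unadjusted p under 0.05 (also 2 of the 28 probe sets). Of 101 genes in the context lists, 9, 9 and 10 passed in these settings, and over all genes 2542, 2101 and 1216. Over all probe sets 1836 passed without the replicate 1 arrays and 2406 at an unadjusted p under 0.05. Leaving out 1 array called 0 members, 0 listed genes, 0 to 87 of all genes and 0 to 48 of all probe sets, the highest without knockout replicate 1. The gene table values of *Hdac2* (−0.61 to 0.045) and *Rcor3* (−0.0023 to 0.76) changed sign when 1 array was left out, and those of the 8 other members did not. Of single probe sets, those of *Hdac2* ranged from −0.32 to 0.23 (1439704_at) and −0.61 to 0.045, of *Phf21a* from −0.061 to 0.40 (1435619_at) and −0.65 to 0.73 (1441145_at), and of *Rcor1* from −0.93 to 0.015 (1437545_at). Those of *Rcor3* ranged from −0.23 to 0.68 (1425352_at), −0.0023 to 0.76, −0.39 to 0.16 (1443922_at) and −0.38 to 0.54 (1444364_at), and of *Rest* from −0.25 to 0.38 (1425564_at) and −0.0175 to 0.17 (1425566_at). With array weights 1444364_at (−0.22), 1425566_at (−0.029), 1439704_at (−0.41) and 1441145_at (−0.59) changed sign. So did 1425566_at (−0.037) and 1439704_at (−0.39) without the replicate 1 arrays and 1439704_at (−0.0051) after renormalisation. The cause was not tested. Dim probe sets, near the median of 5.64, supply most of these reversals.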
